A study of Mus musculus with 8 samples.

Results

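The genes described here are 38 genes of the protein-folding machinery of the endoplasmic reticulum (ER): its chaperones, its disulfide-forming enzymes, the factors that carry misfolded proteins out for degradation (ER-associated degradation, ERAD), the channel through which proteins enter, and the sensors of the unfolded protein response (UPR). The list was taken by gene symbol. Each gene was read from its brightest probe set, the group of short probes that measures 1 transcript, among probe sets with a single symbol in the platform annotation. All 38 were among the 12529 genes whose signal was high enough to be tested, of 18193 genes with a probe set of 1 symbol.

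The arrays measured mouse cells on a C57BL/6 background that carry Oct4, Sox2, Klf4 and Myc (OSKM) in a secondary reprogramming system, in which the factors are switched on by doxycycline. All groups received doxycycline, which the labels give as 2 mg/ml, in medium for embryonic stem cells that held 15% serum and leukemia inhibitory factor at 100 units/ml. There were 4 groups of 2 arrays: CSA at day 3, DMSO at day 3, CSA at day 6 and DMSO at day 6, counted from the start of reprogramming. CSA, which the labels give at 10 mM, is cyclosporin A, an inhibitor of the phosphatase calcineurin and so of NFAT activation, and DMSO is the solvent. The labels call the cells only reprogramming cells and the arrays of a group biological repeats. They give no clone, cell type of origin or animal number. The units of both doses are as the labels write them and could not be checked from the data; micromolar CSA and doxycycline in micrograms may have been meant. With 2 arrays a group, precision is set by how few arrays there are.

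Proteins that enter the ER are held by chaperones while sugars are added and disulfide bonds are formed, and those that fail to fold are drawn back into the cytosol and destroyed by the proteasome. When unfolded proteins accumulate, 3 sensors in the ER membrane respond. IRE1 (Ern1) splices the mRNA of the transcription factor XBP1, ATF6 is cut to release a transcription factor, and PERK (Eif2ak3) phosphorylates a translation factor and thereby favours synthesis of ATF4. XBP1 and ATF6 raise the transcription of chaperones and ERAD factors, and ATF4 raises genes of amino acid supply and of the CHOP (Ddit3) pathway. An expression array sees the amount of mRNA. It measures neither the phosphorylation of PERK nor the cleavage of ATF6, and the splicing of Xbp1 was not read here.

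The DNA element best known for the joint control of these genes is the ER stress response element (ERSE), CCAAT, any 9 bases and then CCACG, which ATF6 binds together with the CCAAT factor NF-Y. Related elements are ERSE-II (ATTGG, any base, CCACG), the UPRE core (TGACGTGG or TGACGTGA) and the amino acid response element core (TGATGNAA), which ATF4 binds. The promoters below, from RefSeq on GRCm38.p6 and read in the direction of the gene, show these elements in capitals on either strand (a motif on the opposite strand appears as its reverse complement). Shown are 6 of the 10 members with an ERSE, among them the central chaperone Hspa5, and Herpud1 with its ERSE-II. Creld2, Syvn1, Derl3 and Ero1b also held an ERSE.

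Hspa5 (chr2:34771913-34772063, + strand): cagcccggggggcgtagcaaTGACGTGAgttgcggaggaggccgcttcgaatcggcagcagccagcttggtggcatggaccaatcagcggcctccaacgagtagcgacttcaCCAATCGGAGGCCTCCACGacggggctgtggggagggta
Hsp90b1 (chr10:86705513-86705676, - strand): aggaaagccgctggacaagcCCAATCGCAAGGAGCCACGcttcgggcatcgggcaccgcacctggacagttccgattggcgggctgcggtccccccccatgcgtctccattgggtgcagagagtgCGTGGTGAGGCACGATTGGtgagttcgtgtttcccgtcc
Calr (chr8:84847055-84847113, - strand): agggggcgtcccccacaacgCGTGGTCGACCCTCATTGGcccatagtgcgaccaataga
Canx (chr11:50325780-50325838, - strand): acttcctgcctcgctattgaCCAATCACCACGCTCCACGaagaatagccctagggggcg
Pdia6 (chr12:17266471-17266529, + strand): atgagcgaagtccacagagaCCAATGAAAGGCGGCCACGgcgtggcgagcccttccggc
Dnajc3 (chr14:118937807-118937865, + strand): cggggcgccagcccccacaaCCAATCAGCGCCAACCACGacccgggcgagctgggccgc
Herpud1 (chr8:94386297-94386407, + strand): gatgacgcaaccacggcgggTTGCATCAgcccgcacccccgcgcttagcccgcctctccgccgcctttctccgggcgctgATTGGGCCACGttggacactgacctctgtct

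Of the 38 members, 33 were matched to a promoter in the table; Derl1, Atf6, Manf, Hyou1 and Sec61a1 were not. In the 250 bases upstream of the start, 10 of the 33 held an ERSE (30.3%), against 35 of all 27025 genes in the table (0.13%), a gene being counted if any of its promoters matched. Herpud1 was the member with an ERSE-II, which 10 of all genes held (0.037%). The UPRE core stood in Hspa5, Txndc5 and Txndc11 (1.01% of all genes), and the amino acid response element core in Herpud1 and Txndc5 (3.91% of all genes). The short motif CCACG, which ERSE and ERSE-II contain, stood in 26 of 33 members (78.8%) and in 31.0% of all genes. Of these 26, 15 held neither ERSE form. It is shown in capitals below for 4 of the 15, chosen because they were called higher under CSA at both days.

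Dnajb9 (chr12:44210069-44210196, - strand): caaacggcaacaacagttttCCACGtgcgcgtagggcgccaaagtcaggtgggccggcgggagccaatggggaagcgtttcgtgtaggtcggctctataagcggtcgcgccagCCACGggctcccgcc
Ero1a (chr14:45318635-45318679, - strand): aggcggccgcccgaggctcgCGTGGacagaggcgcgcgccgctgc
Sec63 (chr10:42761390-42761495, + strand): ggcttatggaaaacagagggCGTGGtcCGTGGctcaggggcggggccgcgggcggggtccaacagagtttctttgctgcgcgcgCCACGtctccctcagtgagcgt
Selenos (chr7:66079577-66079648, + strand): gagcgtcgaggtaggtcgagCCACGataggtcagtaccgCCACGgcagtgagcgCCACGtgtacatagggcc

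Many of these genes were higher with CSA at both days, and none was called lower. At day 3, 20 of the 38 members were higher in CSA than in DMSO at an adjusted p under 0.05 in limma's moderated test with Benjamini-Hochberg adjustment, and 0 were lower. Among all genes tested, 7.14% were called higher and 5.52% lower. At an unadjusted p under 0.05 there were 26 higher and 0 lower, against 15.2% and 13.7% of all genes. The median log2 difference of the members was 0.37, against -0.004 over all genes tested, and in 33 members the CSA and DMSO arrays did not overlap, against 56.5% of all genes. CSA lay above DMSO in 32 of the 33, against 28.2% of all genes with CSA above and 28.3% with CSA below. At day 6, 19 members were higher and 0 lower, against 6.41% and 6.11% of all genes. The median was 0.31, against -0.01 over all genes, and 31 members did not overlap, against 58.1% of all genes. CSA lay above DMSO in 29 of the 31, against 27.8% of all genes with CSA above and 30.2% with CSA below. At an unadjusted p under 0.05 there were 24 higher and 1 lower, against 13.8% and 15.0% of all genes.

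The increases were mostly small. A difference of 1 or more on the log2 scale, a doubling, was reached at day 3 by Dnajb9, Herpud1 and Ero1a, and at day 6 by Dnajb9 and Herpud1. There were 13 members called higher at both days: Canx, Dnajb9, Dnajc3, Manf and Hyou1 among the chaperones, Herpud1, Derl1 and Selenos in degradation, Ero1a, Xbp1, and the translocon genes Sec61b, Sec61a1 and Sec63. A further 7 were called at day 3 alone (Pdia5, Pdia6, Sel1l, Syvn1, Atf6, Eif2ak3 and Os9) and 6 at day 6 alone (P4hb, Dnajb11, Derl2, Sdf2l1, Creld2 and Txndc5). The remaining 12, which include the abundant chaperones Hspa5, Hsp90b1 and Calr, were called at neither day by their brightest probe set. Across the 38 genes the CSA differences of both days had a Pearson correlation of 0.572, given as a description since the genes share arrays.

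**Figure D1:**
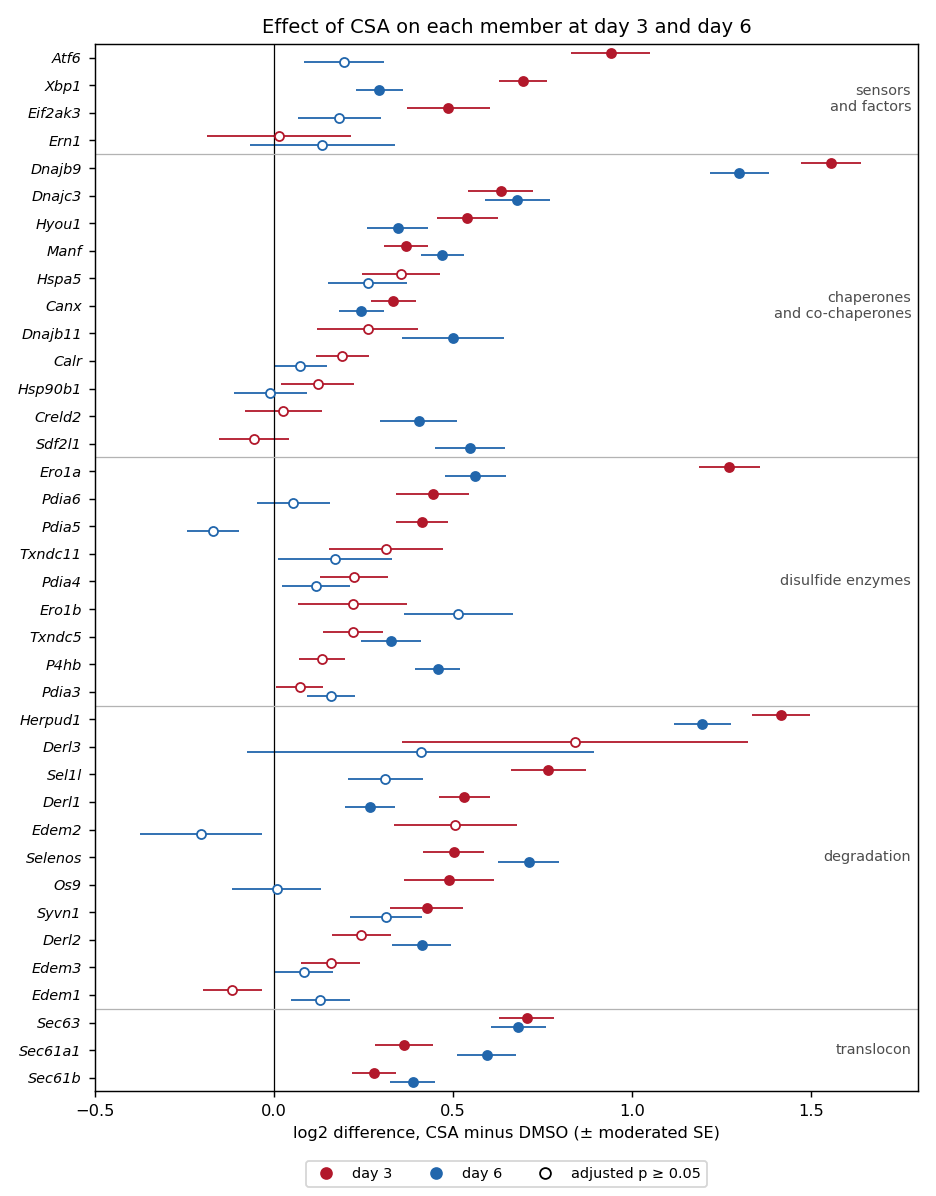
Each member's log2 difference between CSA and DMSO (horizontal axis, CSA minus DMSO) at day 3 (red) and day 6 (blue), grouped by role from sensors at the top to the translocon at the bottom, with whiskers of 1 moderated standard error from limma; filled points have an adjusted p under 0.05. Of the 38 genes, 36 lie right of 0 at day 3 and 35 at day 6, with Dnajb9, Herpud1 and Ero1a farthest right at day 3.

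These counts depended on single arrays and on how the variance was modelled. No share of all genes is given for the settings in this paragraph, so the members' excess over it cannot be read there. The day 3 count was 11 without replicate 1 of CSA at day 3 and 13 without replicate 2, and the day 6 count was 10 without replicate 1 of DMSO at day 6 and 12 without replicate 1 of CSA at day 6; a prior variance without an intensity trend gave 6 and 4 members, and in none of these settings was a member called lower. With some array left out, 9 of the 20 calls at day 3 were lost (Canx, Pdia5, Pdia6, Syvn1, Eif2ak3, Os9, Selenos, Sec61b and Sec61a1, adjusted p up to 0.221) and 9 of the 19 at day 6 (Canx, Dnajb11, Derl1, Derl2, Xbp1, Sdf2l1, Hyou1, Creld2 and Txndc5, adjusted p up to 0.322). Averaging over probe sets moved some called differences upward by over 1.5 times, to 0.91 for Pdia6 and 0.56 for Sec61a1 at day 3 and to 0.41 for Canx and 0.57 for Derl1 at day 6. The second probe set of Pdia6 was dim, with 3.29 and 4.91 in DMSO at day 3. Others moved downward by over 1.5 times, to 0.37 for Sel1l and 0.61 for Atf6 at day 3 and to 0.12 for Derl2 at day 6. Sel1l and Derl2 lost their calls there. The calls that held under every alternative were those of Dnajb9, Herpud1, Atf6, Ero1a and Sec63 at day 3 and of Dnajb9, Herpud1 and Sec63 at day 6. The Selenos call at day 6 held in every alternative in which the gene could be read. It had no probe set left when those whose names mark a possible match to other transcripts were dropped.

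Over the whole series the arrays of a group correlated at 0.9675 to 0.9738, and no array stood apart. The median log2 signal of the tested probe sets was 8.21 to 8.23 at day 3 and 8.44 to 8.47 at day 6. All 6 fibroblast and all 5 epithelial markers were above the filter on low signal. Krt5, Nanog, Zfp42, Ptprc, Pecam1, Cdh5 and the plasma cell genes Jchain and Pou2af1 were not. The other genes listed for plasma and secretory cells, Mzb1, Sdc1, Prdm1 and Derl3, were above it, as were Cd68, Adgre1, Csf1r and Kdr. Of these, Prdm1 was called higher under CSA at day 3, by 1.205 (adjusted p = 0.0415), and none was called at day 6. The summed linear signal of the 4 keratinocyte markers moved with CSA at both days: it was 6548 to 7204 in CSA and 4528 to 4740 in DMSO at day 3, and 5721 to 5745 in CSA and 3707 to 3964 in DMSO at day 6. The fibroblast sum was 5923 to 6319 in CSA against 4206 to 4319 in DMSO at day 3, and 14010 to 14090 against 15020 to 15370 at day 6. The 5 epithelial markers summed to 25450 to 25510 in CSA against 19990 to 21060 in DMSO at day 3, and to 24890 to 25550 against 34050 to 36430 at day 6. The 6 pluripotency markers summed to 869.3 to 1121 in CSA against 794.7 to 869.1 in DMSO at day 3, and to 958.2 to 1052 against 1579 to 1922 at day 6. The brightest gene of each list, Krt14, Col1a2, Krt8 and Pou5f1 in turn, gave the largest part of its sum, and Pou5f1 (Oct4) is also one of the factors the cells carry. Krt14 was not called at day 6 (0.24, adjusted p = 0.084). Krt6a and Ivl were called higher there, by 1.66 and 2.365 (adjusted p = 1.946e-05 and 0.00422). Other genes of a list could differ from its sum: Epcam and Krt18 had -0.37 and -0.48 at day 3 (adjusted p = 0.137 and 0.111), and Zeb1 was the fibroblast marker called at day 6, with a rise of 0.53 (adjusted p = 0.0328). The part of these shifts in the members' differences was not tested, and in such bulk RNA more cells of a type and more RNA per cell cannot be told apart.

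**Figure D2:**
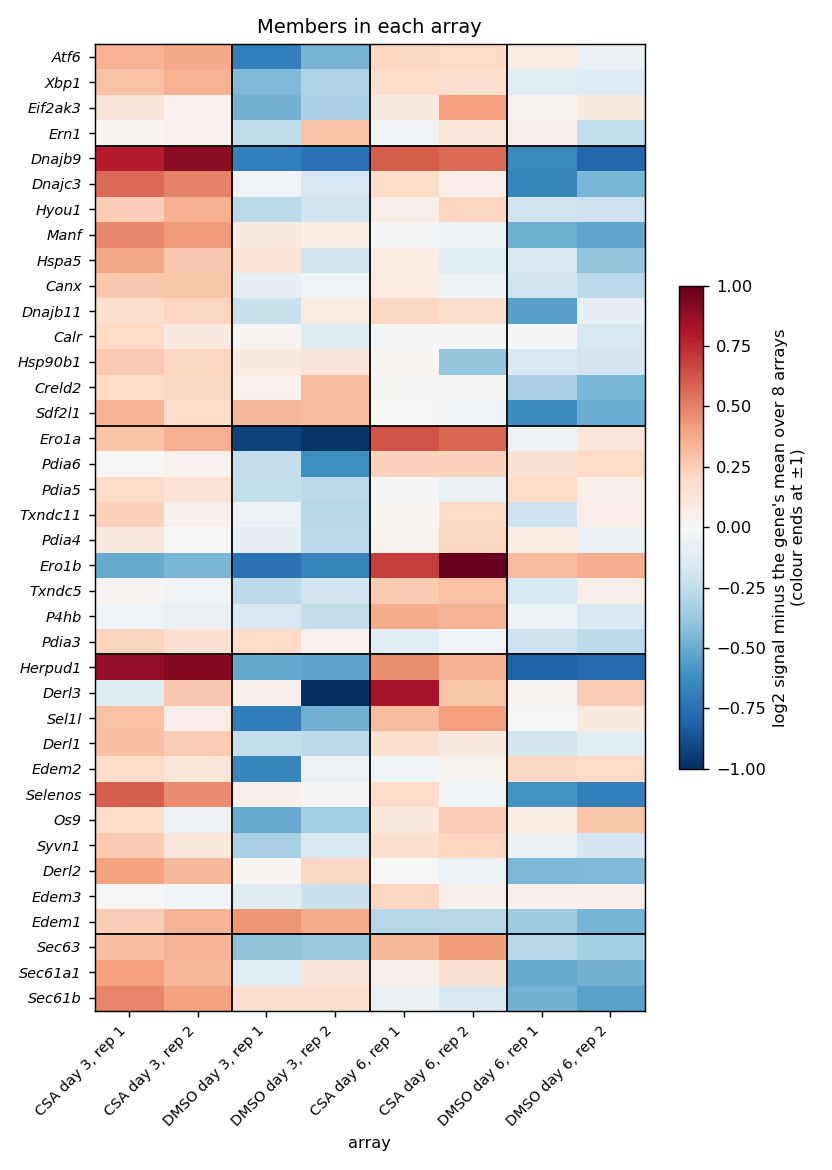
Log2 signal of every member (rows, by role) in every array (columns, CSA beside DMSO within each day), as the difference from that gene's mean over the 8 arrays; red is above and blue below the mean, and the colour scale ends at 1 log2 unit either way. The rows of Dnajb9 and Herpud1 are red in all 4 CSA arrays and blue in all 4 DMSO arrays, while Edem1 and Sec61b divide more by day.

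Among the sensors and their factors, 3 of 4 were higher under CSA at day 3 (median 0.59) and 1 of 4 at day 6 (median 0.19). Among all genes tested, 7.14% were called higher at day 3 and 6.41% at day 6. These shares also stand beside the counts of each role below. Atf6 had log2 signals of 10.13 and 10.17 in CSA at day 3, against 9.10 and 9.32 in DMSO. At day 6 it had 10.00 and 9.98 in CSA, against 9.87 and 9.72 in DMSO. The arrays did not overlap at either day, but the gap was wide at day 3 and narrow at day 6. The difference was 0.94 ± 0.11 (SE) at day 3, a 1.92-fold increase with an adjusted p of 0.00047 in limma, and 0.20 ± 0.11 at day 6 (adjusted p = 0.32). Both other probe sets of Atf6 gave 0.44 at day 3, with adjusted p of 0.149 and 0.249, and were not called. At day 6 these gave 0.58 and 0.26, also without a call (adjusted p = 0.0589 and 0.519). The first of them thus did not share the narrower gap at day 6. At day 3 the mean of the 3 probe sets gave 0.61 and was called (adjusted p = 0.014).

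Xbp1, the transcription factor downstream of IRE1, had 12.81 and 12.87 in CSA at day 3, against 12.08 and 12.21 in DMSO. Its day 6 signals were 12.71 and 12.68 in CSA, against 12.41 and 12.39 in DMSO. All 4 CSA arrays lay above all 4 DMSO arrays. The differences were 0.70 ± 0.07 (adjusted p = 0.000131) and 0.30 ± 0.07 (adjusted p = 0.0171), or 1.62-fold and 1.23-fold. Of its 4 probe sets, 3 were called at both days, and the other gave 0.32 and 0.31 without passing the test (adjusted p = 0.373 and 0.386). The names of the 3 called probe sets mark a possible match to other transcripts, and that of the other does not. With such probe sets dropped, limma called Xbp1 at neither day (adjusted p = 0.381 and 0.397).

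Eif2ak3, which encodes PERK, had 10.34 and 10.26 in CSA at day 3, against 9.74 and 9.89 in DMSO. At day 6 it had 10.30 and 10.62 in CSA, against 10.25 and 10.31 in DMSO. The day 3 groups were apart and the day 6 groups overlapped, with differences of 0.49 ± 0.12 (adjusted p = 0.022) and 0.18 ± 0.12 (adjusted p = 0.383). The sensor gene Ern1, encoding IRE1, did not pass the test: its signals were 8.36 and 8.38 in CSA against 8.08 and 8.63 in DMSO at day 3, and the difference was 0.02 ± 0.20 there and 0.14 ± 0.20 at day 6. The DMSO arrays of Ern1 at day 3 spread on both sides of the CSA arrays. Its SE, which draws on all groups and is the same at both days, was larger than those of Atf6, Xbp1 and Eif2ak3.

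**Figure D3:**
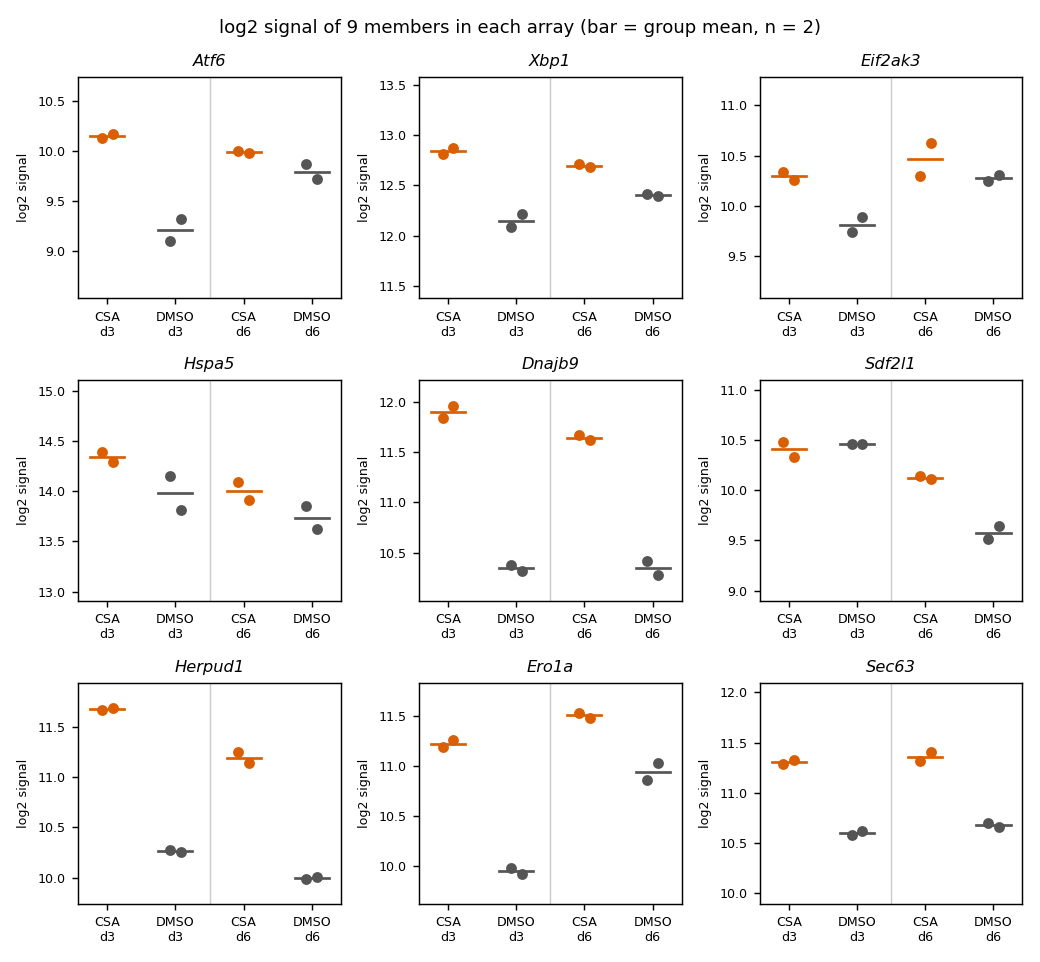
Log2 signal of 9 members in each array (points) with the group mean (bar, n = 2), CSA in orange and DMSO in grey, day 3 left and day 6 right of the line in each panel; the vertical axes cover the same span of log2 units but different ranges. Atf6, Xbp1 and Ero1a show a wider gap between CSA and DMSO at day 3 than at day 6, Sdf2l1 shows a gap at day 6 alone, and Dnajb9, Herpud1 and Sec63 show one at both days.

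Among the chaperones and co-chaperones, 5 of 11 were higher under CSA at day 3 (median 0.33) and 8 of 11 at day 6 (median 0.41). Dnajb9, a J-domain partner of the chaperone BiP that also restrains IRE1, had the largest CSA difference of any member at both days. Its log2 signals were 11.84 and 11.96 in CSA against 10.37 and 10.32 in DMSO at day 3, and 11.67 and 11.62 in CSA against 10.41 and 10.28 in DMSO at day 6. The CSA arrays were all more than a log2 unit above the DMSO arrays. The differences were 1.56 ± 0.08 (2.94-fold, adjusted p = 1.65e-06) and 1.30 ± 0.08 (2.46-fold, adjusted p = 1.163e-05), from the single probe set of the gene.

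Dnajc3, a BiP co-chaperone also known as an inhibitor of PERK, had 11.84 and 11.77 in CSA against 11.23 and 11.10 in DMSO at day 3. Its day 6 signals were 11.46 and 11.34 in CSA, against 10.62 and 10.82 in DMSO. The groups were apart at both days, by 0.63 ± 0.09 (adjusted p = 0.0015) and 0.68 ± 0.09 (adjusted p = 0.000894). Manf, a small secreted protein that binds BiP, rose by 0.37 ± 0.06 (adjusted p = 0.00333) at day 3 and 0.47 ± 0.06 (adjusted p = 0.000722) at day 6. Canx, the membrane-bound lectin chaperone of glycoproteins, rose by 0.33 ± 0.06 and 0.25 ± 0.06 (adjusted p = 0.00666 and 0.0301). Hyou1, which exchanges nucleotide on BiP, was called at both days by a probe set whose name marks a possible match to other transcripts (0.54 and 0.35), whereas a probe set without that mark gave 0.20 and -0.02 (adjusted p = 0.544 and 0.959).

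Hspa5 encodes BiP, the central ER chaperone and the usual readout of the UPR. It had 14.39 and 14.29 in CSA, against 14.15 and 13.82 in DMSO, at day 3, and 14.09 and 13.91 in CSA, against 13.85 and 13.62 in DMSO, at day 6. The CSA arrays lay above the DMSO arrays within each day, but the DMSO arrays of each day differed from one another by about as much as the groups did. The differences of 0.36 ± 0.11 and 0.26 ± 0.11 did not pass the test (adjusted p = 0.0656 and 0.169). Another probe set of the gene did pass it with 0.51 ± 0.06 (adjusted p = 0.000351) and 0.33 ± 0.06 (adjusted p = 0.00419), and the last had -0.22 and -0.11 (adjusted p = 0.372 and 0.688).

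The same held in part for the other abundant chaperones. Hsp90b1, the ER member of the HSP90 family, differed by 0.12 ± 0.10 and -0.01 ± 0.10 in its brightest probe set, and by 0.26 ± 0.07 and 0.34 ± 0.07 in its other, which was called at both days (adjusted p = 0.037 and 0.0121). Calr, the soluble lectin chaperone, differed by 0.19 ± 0.07 and 0.07 ± 0.07 and was called by 1 other probe set at day 3 (0.29, adjusted p = 0.0383). In every probe set of these 3 chaperones the difference was under 1 log2 unit.

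Another 3 chaperone genes were called at day 6 and not at day 3. Sdf2l1, which works with Dnajb11 in keeping unfolded proteins from aggregating, had 10.49 and 10.33 in CSA against 10.46 and 10.46 in DMSO at day 3. At day 6 it had 10.14 and 10.11 in CSA against 9.51 and 9.65 in DMSO. The day 3 groups overlapped and the day 6 groups were apart, with differences of -0.05 ± 0.10 (adjusted p = 0.809) and 0.55 ± 0.10 (adjusted p = 0.00524). Creld2, an ER protein induced by ER stress, rose by 0.41 ± 0.11 at day 6 (adjusted p = 0.0353) and had a difference of 0.03 ± 0.11 at day 3, and Dnajb11 rose by 0.50 ± 0.14 at day 6 (adjusted p = 0.0481) and had 0.26 ± 0.14 at day 3. Without replicate 1 of DMSO at day 6 the Dnajb11 difference was 0.27 (adjusted p = 0.322). Of these 3, only the Sdf2l1 difference between the days passed its own test, given below.

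Among the 9 disulfide enzymes, 3 were higher at day 3 (median 0.22) and 3 at day 6 (median 0.17). Ero1a, the oxidase that recharges protein disulfide isomerase, led them. Its signals were 11.19 and 11.26 in CSA against 9.98 and 9.92 in DMSO at day 3, and 11.53 and 11.48 in CSA against 10.85 and 11.03 in DMSO at day 6. The groups were apart at both days, and all 3 probe sets of the gene were called at both. The differences were 1.27 ± 0.09 (2.42-fold, adjusted p = 1.415e-05) and 0.56 ± 0.09 (1.48-fold, adjusted p = 0.00195).

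The isomerases were called at different days. Pdia5 rose by 0.41 ± 0.07 at day 3 (adjusted p = 0.00494), with 11.98 and 11.94 in CSA against 11.55 and 11.54 in DMSO. At day 6 it had 11.79 and 11.72 in CSA against 11.99 and 11.85 in DMSO, a difference of -0.17 ± 0.07 (adjusted p = 0.186). The CSA arrays of Pdia5 were thus above DMSO at day 3 and below it at day 6. Pdia6 rose by 0.44 ± 0.10 at day 3 (adjusted p = 0.0184) and differed by 0.05 ± 0.10 at day 6; its day 3 difference was 0.26 without replicate 2 of DMSO at day 3 (adjusted p = 0.0793). P4hb, the founding protein disulfide isomerase, had the reverse order, with 0.14 ± 0.06 at day 3 (adjusted p = 0.224) and a rise of 0.46 ± 0.06 at day 6 (adjusted p = 0.00105), with 13.51 and 13.47 in CSA against 13.09 and 12.98 in DMSO. Txndc5, another thioredoxin-fold isomerase, rose by 0.33 ± 0.08 at day 6 (adjusted p = 0.0301) and had 0.22 ± 0.08 at day 3. Pdia3, which acts on glycoproteins with the lectin chaperones, Pdia4, Txndc11 and Ero1b, the second oxidase, were called at neither day, with differences of 0.07 to 0.31 at day 3 and 0.12 to 0.51 at day 6.

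Of the 11 degradation genes, 6 were higher at day 3 (median 0.50) and 4 at day 6 (median 0.31). Herpud1, which binds the ubiquitin ligase complex of the ER membrane, stood first. It had 11.67 and 11.69 in CSA against 10.28 and 10.25 in DMSO at day 3, and 11.25 and 11.14 in CSA against 9.99 and 10.01 in DMSO at day 6. The CSA arrays were all more than a log2 unit above the DMSO arrays of their day. The differences were 1.42 ± 0.08 (2.67-fold, adjusted p = 2.718e-06) and 1.20 ± 0.08 (2.29-fold, adjusted p = 1.774e-05), and its second probe set was called at both days too.

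The ligase itself was called at day 3. Sel1l, the adaptor that holds the ligase and its substrates, had 11.13 and 10.91 in CSA against 10.15 and 10.36 in DMSO at day 3, a rise of 0.77 ± 0.10 (adjusted p = 0.00107), and a difference of 0.31 ± 0.10 at day 6 (adjusted p = 0.0872). Of its 4 other probe sets, 1 was called at day 3 (0.78, adjusted p = 0.0435) and 3 were not, with 0.04 to 0.20, and the mean of all 5 gave 0.37 (adjusted p = 0.0502). Syvn1, the ligase HRD1, rose by 0.43 ± 0.10 at day 3 (adjusted p = 0.0209) and differed by 0.31 ± 0.10 at day 6 (adjusted p = 0.077), where its other probe set was called (0.47, adjusted p = 0.0242). Os9, a lectin that delivers glycoproteins to the ligase, rose by 0.49 ± 0.12 at day 3 (adjusted p = 0.0305) and had 0.01 ± 0.12 at day 6. Its other probe set had the reverse order, with 0.25 at day 3 and 0.52 at day 6, and was not called (adjusted p = 0.396 and 0.0609).

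Selenos, a selenoprotein that links the ERAD complex to the ATPase VCP, was higher at both days. Its signals were 12.69 and 12.56 in CSA against 12.14 and 12.10 in DMSO at day 3, and 12.28 and 12.05 in CSA against 11.50 and 11.41 in DMSO at day 6. The groups were apart at both days, by 0.50 ± 0.09 (adjusted p = 0.00403) and 0.71 ± 0.09 (adjusted p = 0.000484), and all 3 probe sets were called at both. The names of all 3 mark a possible match to other transcripts. Of the derlins, which form part of the exit channel, Derl1 rose by 0.53 ± 0.07 and 0.27 ± 0.07 (adjusted p = 0.000992 and 0.0356). Its other probe sets were called at both days too, with 0.33, 0.43 and 0.70 at day 3 and 0.54, 0.76 and 0.69 at day 6. Derl2 rose by 0.41 ± 0.08 at day 6 (adjusted p = 0.00966). The other probe set of Derl2 had -0.18 at day 6 (adjusted p = 0.541), and the mean of both gave 0.12 without a call (adjusted p = 0.492). Derl3 was dim and its arrays were far apart, with 6.52 and 6.91 in CSA against 6.69 and 5.05 in DMSO at day 3, so that its difference of 0.84 had an SE of 0.48.

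The 3 EDEM genes, whose products trim mannose from misfolded glycoproteins, were called at neither day. Edem1 had differences of -0.12 ± 0.08 and 0.13 ± 0.08, Edem2 had 0.51 ± 0.17 and -0.20 ± 0.17, and Edem3 had 0.16 ± 0.08 and 0.08 ± 0.08 at day 3 and day 6.

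All 3 translocon genes were higher under CSA at both days, with a median of 0.36 at day 3 and 0.60 at day 6. Sec63, which brings BiP to the channel, had 11.29 and 11.32 in CSA against 10.58 and 10.62 in DMSO at day 3. Its day 6 signals were 11.31 and 11.41 in CSA against 10.70 and 10.66 in DMSO. The groups were apart at both days, by 0.71 ± 0.08 (adjusted p = 0.000314) and 0.68 ± 0.08 (adjusted p = 0.000351), and these effects differed by -0.02 ± 0.11 between the days. Sec61a1, the pore, rose by 0.36 ± 0.08 and 0.60 ± 0.08 (adjusted p = 0.0171 and 0.00108), and Sec61b, a small subunit, by 0.28 ± 0.06 and 0.39 ± 0.06 (adjusted p = 0.0153 and 0.00248).

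Whether the effect of CSA differed between the days was tested as the CSA difference at day 6 minus that at day 3. It was lower at day 6 for 4 members and higher for 1, against 3.43% lower and 2.36% higher of all genes tested. The effect fell by 0.75 ± 0.16 for Atf6 (adjusted p = 0.0246 in limma), by 0.71 ± 0.12 for Ero1a (adjusted p = 0.0101), by 0.58 ± 0.10 for Pdia5 (adjusted p = 0.0112) and by 0.40 ± 0.09 for Xbp1 (adjusted p = 0.0371). It was 0.60 ± 0.14 larger for Sdf2l1 (adjusted p = 0.0356). For the other 33 members the difference between the days did not pass the test, also where a gene was called at 1 day alone.

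None of these 5 calls held when every array was left out in turn. The Pdia5 call was lost without replicate 1 of CSA at day 3 (adjusted p = 0.0623) and without replicate 1 of DMSO at day 6 (adjusted p = 0.0535), and the Ero1a call without replicate 2 of CSA at day 3 (adjusted p = 0.0569) and replicate 2 of DMSO at day 6 (adjusted p = 0.0501). Xbp1 and Atf6 lost theirs with each array left out except replicate 2 of DMSO at day 3, and Sdf2l1 with each of the 8, at adjusted p of 0.0679 to 0.142, 0.0532 to 0.0948 and 0.0664 to 0.14, with no change of direction. The Xbp1, Atf6 and Ero1a calls also depended on the probe set. Other probe sets of Ero1a gave -0.24 and -0.50 and were not called (adjusted p = 0.337 and 0.122), although the mean of all its probe sets kept the call. Those of Atf6 gave 0.14 and -0.18 (adjusted p = 0.81 for both). The 3 other probe sets of Xbp1 gave -0.38, -0.27 and -0.01 and were not called (adjusted p = 0.0899, 0.241 and 0.991), and the means of all probe sets gave -0.26 for Xbp1 (adjusted p = 0.143) and -0.26 for Atf6 (adjusted p = 0.463). Without the intensity trend limma called 0 members, and 7 had an unadjusted p under 0.05. The share of all genes without the trend is not given here. With the trend, 3 members had an unadjusted p under 0.05 for a higher effect at day 6 and 9 for a lower one. Of all 12529 genes tested, 1314 and 1542 had one.

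The course over time was read within each treatment. In CSA, 4 members were higher and 14 lower at day 6 than at day 3, against 20.2% and 15.8% of all genes. In DMSO, 10 were higher and 13 lower, against 26.1% and 19.6%. The median over the members was -0.15 in CSA and 0.05 in DMSO, against 0.08 over all genes in both. These comparisons share arrays with the CSA comparisons and are not independent of them.

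In their brightest probe sets, Atf6, Xbp1 and Eif2ak3 were not called between the days in CSA, where they differed by -0.16, -0.15 and 0.16. They were higher at day 6 in DMSO, by 0.58 ± 0.11 (adjusted p = 0.00138), 0.25 ± 0.07 (adjusted p = 0.00953) and 0.47 ± 0.12 (adjusted p = 0.00742). Pdia5, Pdia6, Sel1l, Os9 and Edem2 likewise were not called in CSA and were higher at day 6 in DMSO, by 0.38, 0.60, 0.64, 0.60 and 0.56. The other probe set of Os9 had 0.03 in DMSO (adjusted p = 0.913). Ero1a was 0.28 ± 0.09 higher at day 6 in CSA (adjusted p = 0.0281) and 0.99 ± 0.09 higher in DMSO (adjusted p = 5.942e-06). Ero1b had the largest increase over time of any member in both treatments, by 1.33 ± 0.15 in CSA (adjusted p = 8.543e-05) and 1.04 ± 0.15 in DMSO (adjusted p = 0.000233).

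By the brightest probe sets, no chaperone or translocon gene was called higher at day 6 in either treatment. In CSA, 7 of 11 chaperones were lower at day 6 and 0 higher, against 15.8% and 20.2% of all genes. In DMSO 6 of 11 were lower and 0 higher, against 19.6% and 26.1%. Some of these decreases depended on the scaling, as given below: under quantile normalization Hspa5, Hsp90b1, Canx and Dnajb9 lost theirs in CSA. Sdf2l1 fell by 0.28 ± 0.10 in CSA (adjusted p = 0.0496) and by 0.88 ± 0.10 in DMSO (adjusted p = 3.366e-05). Manf fell by 0.49 ± 0.06 in CSA and 0.59 ± 0.06 in DMSO, Sec61b by 0.56 ± 0.06 and 0.67 ± 0.06, and Sec61a1 by 0.27 ± 0.08 and 0.50 ± 0.08. The third translocon gene, Sec63, had 0.05 ± 0.08 and 0.08 ± 0.08 in its brightest probe set and was not called. A dimmer probe set of Sec63 was called higher at day 6, by 0.99 in CSA and 1.24 in DMSO (adjusted p = 0.0015 and 0.000197). One of Hyou1 was called higher in DMSO (0.68, adjusted p = 0.00677). Outside these roles, Selenos fell by 0.46 ± 0.09 in CSA and 0.67 ± 0.09 in DMSO. Edem1 fell by 0.57 ± 0.08 and 0.82 ± 0.08 in its brightest probe set, whereas its other, nearly as bright, had -0.36 in CSA (adjusted p = 0.0296) and 0.03 in DMSO (adjusted p = 0.868).

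Directions over time depended on how the arrays were scaled, and the day 6 arrays were brighter at the median. Centring each array on its median moved the median of all genes to -0.14 in CSA and -0.17 in DMSO and gave 2 members higher and 21 lower in CSA, against 11.5% and 28.2% of all genes, and 6 and 17 in DMSO, against 15.9% and 32.2%. Quantile normalization moved it to -0.02 and -0.03 and gave 5 higher and 8 lower in CSA, against 15.8% and 15.5% of all genes, and 13 and 10 in DMSO, against 21.3% and 22.0%. In DMSO, Xbp1, Eif2ak3, Pdia5 and Edem2 lost their increase under centring, Edem2 also under quantile normalization, and Hsp90b1, Canx and Pdia3 lost their decrease under quantile normalization. In CSA, Ero1a and Txndc5 lost their increase under centring, and Hspa5, Hsp90b1, Canx, Pdia3, Dnajb9 and Sec61a1 their decrease under quantile normalization. With some array left out, 10 of the 18 calls in CSA were lost (Hspa5, Hsp90b1, Canx, Pdia3, Dnajb9, Dnajc3, Sdf2l1, Ero1a, Txndc5 and Sec61a1, adjusted p up to 0.294) and 6 of the 23 in DMSO (Hsp90b1, Canx, Herpud1, Edem2, Xbp1 and Eif2ak3, adjusted p up to 0.217). Probe sets of Derl2 and Ero1a were called in opposite directions between the days in both treatments, and those of Atf6 in DMSO.

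The CSA differences were then set beside the promoters. Of the 10 members with an ERSE in the window, 4 were higher at day 3 (median 0.34) and 3 at day 6 (median 0.29). Of the 23 matched members without one, 11 were higher at day 3 (median 0.31) and 12 at day 6 (median 0.31). Among all genes tested, 7.14% were called higher at day 3 and 6.41% at day 6. The 10 members with an ERSE ranged from 0.03 (Creld2) to 0.84 (Derl3) at day 3 and from -0.01 (Hsp90b1) to 0.68 (Dnajc3) at day 6. The 15 members with CCACG and neither ERSE form had medians of 0.31 and 0.33, and ranged from -0.12 (Edem1) to 1.56 (Dnajb9) at day 3 and from -0.17 (Pdia5) to 1.30 (Dnajb9) at day 6. The 4 printed above are not typical of these 15, since they were chosen for their calls. Herpud1, with both an ERSE-II and an amino acid response element core, had 1.42 and 1.20. A match is a description of letters in this window, and nothing was tested about the binding of a factor.

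**Figure D4:**
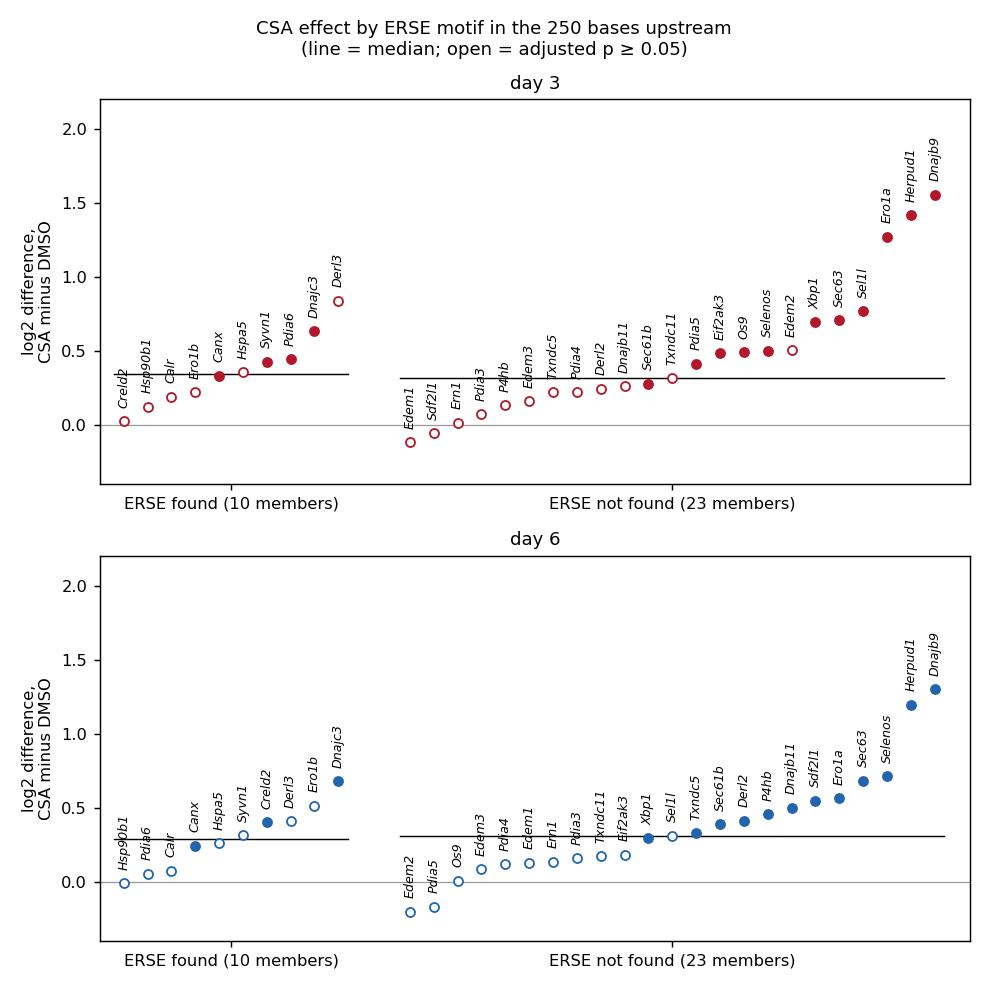
CSA differences (vertical axis, log2, CSA minus DMSO) of the 33 members with a RefSeq promoter, split by whether an ERSE stood in the 250 bases upstream, at day 3 (top) and day 6 (bottom); each point is a gene, filled where the adjusted p was under 0.05, and the line is the median. The medians of both columns lie between 0.29 and 0.34 in both panels, and Dnajb9 and Herpud1, at the top of each panel, are in the column without an ERSE.

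Other genes of the pathway, 113 genes in 7 lists with 107 tested, were read from the same fit. At day 3, 42 were higher under CSA and 1 lower, with a median of 0.24, and at day 6, 33 were higher and 3 lower, with a median of 0.19. Among all genes tested, 7.14% were called higher and 5.52% lower at day 3, and 6.41% and 6.11% at day 6. These shares also stand beside the counts of each list below. No list was tested as a set, and in the shorter lists 1 or 2 calls say little. Of 10 genes downstream of PERK and ATF4, 9 were higher at day 3 (median 0.64) and 5 at day 6 (median 0.32).

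Ddit3, which encodes the pro-apoptotic factor CHOP, had 9.89 and 9.90 in CSA against 8.29 and 8.72 in DMSO at day 3, and 10.55 and 10.34 in CSA against 8.47 and 8.55 in DMSO at day 6. The groups were more than a log2 unit apart at both days, by 1.39 ± 0.15 (adjusted p = 0.000289) and 1.94 ± 0.15 (adjusted p = 2.693e-05). Atf4 itself rose by 0.62 ± 0.07 and 0.41 ± 0.07 (adjusted p = 0.000404 and 0.00434). Trib3, a pseudokinase induced by CHOP, rose by 2.05 and 1.79, Chac1, which degrades glutathione, by 1.95 and 1.91, and the stress-induced gene Nupr1 by 1.32 and 1.31. All 3 passed the test at both days, and the differences of Trib3 and Chac1 were larger than that of any member.

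Of 25 other genes of entry into the ER and sugar addition, 13 were higher at day 3 (median 0.28) and 12 at day 6 (median 0.23). Sec11c, a catalytic subunit of the signal peptidase, rose by 0.60 ± 0.10 and 1.27 ± 0.10 (adjusted p = 0.00504 and 4.579e-05). Tram1, which assists insertion at the translocon, rose by 0.56 ± 0.07 and 0.54 ± 0.07. Ssr1, of the translocon-associated complex, rose by 0.37 and 0.29, Spcs3, of the signal peptidase, by 0.40 and 0.27, and Rpn1, of the oligosaccharyltransferase, by 0.41 and 0.23. At day 6 Dad1, another subunit of that transferase, rose by 0.47 and had -0.12 at day 3, and Sec62, a partner of Sec63, rose by 0.28 and 0.39.

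Of 14 genes of ER to Golgi transport, 6 were higher at day 3, and 4 were higher and 1, Sec23a, lower at day 6. Sec24d, a cargo-binding subunit of the COPII coat, rose by 1.17 ± 0.10 and 1.16 ± 0.10 (adjusted p = 8.793e-05 and 6.985e-05), and Sec23b by 0.31 and 0.26. Mcfd2 and Sec31a rose at day 3, by 0.40 and 0.41, and Sar1a and Surf4 at day 6, by 0.35 and 0.51. Of 25 other folding genes, 7 were higher at day 3 and 6 at day 6. Hspa13 (0.67 and 0.30), Erp44 (0.44 and 0.37) and the collagen chaperone Serpinh1 (0.30 and 0.33) rose at both days. Dnajc10 (0.53), Ganab (0.51) and Uggt1 (0.49) rose at day 3, and Selenof (0.48) and Mlec (0.42) at day 6.

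Of 18 other ERAD genes, 4 were higher at day 3 and 2 at day 6. Ngly1, which strips sugars from exported glycoproteins, rose at both days, by 0.50 ± 0.10 and 0.73 ± 0.10 (adjusted p = 0.0106 and 0.00122). Erlec1 (0.43), Aup1 (0.34) and Herpud2 (0.34) rose at day 3, and Ubxn4 (0.52) at day 6. Of 10 other genes of stress sensing, 2 were higher at day 3, and 2 were higher and 1 lower at day 6. Creb3l2, a membrane-bound relative of ATF6, rose by 0.97 ± 0.12 and 0.54 ± 0.12 (adjusted p = 0.000636 and 0.0171), and Creb3 rose by 0.58 ± 0.07 at day 6. Mbtps2, the protease that makes the second cut of ATF6, was 0.41 ± 0.08 higher with CSA at day 3 (adjusted p = 0.00608) and changed by -0.29 ± 0.08 at day 6 (adjusted p = 0.034). Its difference between the days passed the test (-0.70, adjusted p = 0.00528).

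Of 5 mRNAs that IRE1 is known to cut in mouse fibroblasts, 1 was higher and 1 lower at day 3, and 2 were higher and 1 lower at day 6. Col6a1, a collagen chain, was the gene that fell at both days. It had 9.99 and 10.07 in CSA against 10.81 and 10.68 in DMSO at day 3, and 9.99 and 10.07 in CSA against 10.79 and 10.88 in DMSO at day 6. The groups were apart by -0.72 ± 0.09 and -0.81 ± 0.09 (adjusted p = 0.000779 and 0.000363). Scara3 rose by 0.62 at day 3, and Hgsnat and Sparc rose by 0.57 and 0.38 at day 6.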

How the data were processed

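RNA of 8 samples in 4 groups of 2, assigned from the labels, was measured on Affymetrix 3' arrays. The values deposited by the authors are log2 signals, 1 for each array of each of 45037 probe sets. Per the submitters' processing notes they were made with MAS5, which summarises a probe set and scales the array. Its version, the scaling target and array batches were not given in the sources used. Dim MAS5 signals vary most, and each array held 110 to 259 values at exactly 0.

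With limma 3.58.1 in R 4.3.3, 1 mean per group was fitted to the 27022 probe sets with a mean log2 signal at or above the 40th percentile (5.3748), leaving 4 residual degrees of freedom; the prior variance followed an intensity trend. Two-sided p-values were Benjamini-Hochberg adjusted over those probe sets, with a threshold of 0.05, and SE is the moderated standard error. A gene was read from its brightest probe set with 1 symbol. The 38 members had 96 probe sets, 89 of them tested, and 26 members had several. The pipeline was tested on simulated data. Replicate numbers did not pair the samples (correlation of deviations -0.003 to 0.034).

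Members, lists of other pathway genes and motifs were chosen with earlier results of these data known. Named are all 38 members and, of each list, up to 4 genes with the smallest adjusted p at each day, with Atf4 and Ddit3 always; Sec23a was named after its value was seen. Alternatives were a replicate block, each array left out, no filter or one at the 60th percentile, no trend, quantile normalization, median centring, a floor at a log2 signal of 5, a pseudocount of 32, averaging the probe sets of a gene, dropping probe sets whose suffix marks possible matches to other transcripts, and only the arrays compared. Promoters came from RefSeq (GRCm38.p6), 250 bases upstream. Features of the proteins were not used here.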

Additional observations from a re-analysis of the deposited data

Results flagged for a closer look

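The CSA effect differed between the days by limma's interaction test for 5 members. As the effect at day 6 minus that at day 3, the difference was -0.745 for Atf6, -0.709 for Ero1a, -0.583 for Pdia5, -0.401 for Xbp1 and 0.602 for Sdf2l1. The Atf6 difference came from its brightest probe set: the mean of its probe sets gave -0.26, with an adjusted p of 0.463. The Ero1a and Xbp1 differences were called in no single probe set but the brightest. The mean of all probe sets kept the limma call for Ero1a and lost it for Xbp1 (-0.26, adjusted p = 0.143).

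In Edem1 and Edem2, as in Pdia5, the CSA arrays lay on opposite sides of the DMSO arrays at the 2 days. With 2 arrays a group such gaps were common. At day 3 CSA lay wholly above DMSO in 28.2% of all genes and wholly below it in 28.3%. At day 6 these shares were 27.8% and 30.2%. How many of all genes changed sides between the days is not given here. The difference of the CSA effects between the days was 0.245 for Edem1 (adjusted p = 0.286) and -0.709 for Edem2 (adjusted p = 0.136) and did not pass limma's test. The 2 probe sets of Edem1 had opposite signs at each day, -0.12 and 0.22 at day 3 and 0.13 and -0.17 at day 6.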

How the results depend on the processing

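The numbers of members called depended on single arrays and on the variance model, and over time their split into higher and lower depended on the scaling. With 1 array left out, the count of members called ran from 11 to 20 for CSA against DMSO at day 3 and from 10 to 19 at day 6. It ran from 1 to 5 for the difference between the days, from 8 to 18 for the days in CSA and from 18 to 24 for the days in DMSO. Without replicate 1 or 2 of CSA at day 3 the days in CSA gave 8 and 11 members. Without the intensity trend the counts were 6 at day 3, 4 at day 6 and 8 for the days in CSA. For the difference between the days limma then called 0, and 7 had an unadjusted p under 0.05. The shares of all genes in that setting are not given here. The replicate block gave 21, 20, 6, 18 and 25 members for day 3, day 6, the difference, the days in CSA and the days in DMSO. The numbers pair nothing in the labels, and the block moved none of these counts by 1.5 times. In the other settings the totals called stayed within 1.5 times the reported ones, but the split did not: over time in CSA, 4 higher and 14 lower became 2 and 21 under centring and 5 and 8 under quantile normalization, and in DMSO 10 and 13 became 6 and 17 and 13 and 10. Averaging the probe sets gave 10 higher and 8 lower in DMSO.

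Differences called in the report, or in the case of Calr under the alternative, changed sign in 8 of 3537 member values recomputed. Without probe sets that may match other transcripts, Hyou1 had -0.024 at day 6. When all probe sets of a gene were averaged, the change between the days was -0.124 for Ero1a, 0.011 for Pdia3 and 0.062 for Derl2 in CSA, and 0.21 for Derl2 and -0.062 for Atf6 in DMSO. Quantile normalization gave 0.097 for Canx and 0.181 for Calr between the days in DMSO, and Calr had -0.04 before. The cause of these changes was not tested. Of the other values, 244 lost and 65 gained a call, and 3220 stayed on their side of the threshold.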
